A study of Homo sapiens with 6 samples.

Results

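The 9 genes described here, HLA-B, HLA-C, HLA-E, B2M, TAP1, TAP2, TAPBP, NLRC5 and ERAP1, belong to the MHC class I antigen presentation pathway. They were chosen by name from the 56303 gene symbols of the count table, and all 9 passed the filter on low counts. RNA was sequenced from SW480 cells, a colorectal adenocarcinoma line, in 3 libraries with a control short hairpin RNA (shCtrl, genotype labelled WT) and 3 libraries with a hairpin against RBM39 (shRBM39). RBM39 is an RNA-binding protein that takes part in pre-mRNA splicing. According to the study's methods both hairpins were delivered by lentivirus and the cells were selected with puromycin as stable clonal lines. The number of hairpin sequences behind shRBM39 is not given in the sources used here, and no cytokine or drug is named in the labels of either group. The study describes the 3 libraries of a group as replicate experiments. The p-values of single genes rest on the spread between these libraries, combined with the spread seen across other genes. Those of ratios compare the group difference with that under every regrouping of the 6 libraries. Whether the libraries of a group came from the same clonal line is not given in the sources used here.

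In the class I pathway the proteasome cuts cytosolic proteins into peptides, the TAP1 and TAP2 transporter carries them into the endoplasmic reticulum, and the aminopeptidase ERAP1 trims them there. Tapasin, the product of TAPBP, holds an empty heavy chain with its light chain B2M at the transporter until a peptide binds, and the loaded complex travels to the cell surface. HLA-B and HLA-C present peptides to CD8 T cells, whereas HLA-E mostly presents leader peptides of other heavy chains to NKG2A and NKG2C receptors of natural killer cells. NLRC5 is the transactivator that works on class I, B2M and transporter genes together with the RFX, CREB/ATF and NF-Y factors.

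The libraries held 18042924 to 20428901 counts, and replicates of a group differed by more than sampling noise in every pair (chi-square per degree of freedom of 2.11 to 4.21 over genes). RBM39 itself had 8894, 9504 and 8831 counts in shCtrl and 5211, 4743 and 5662 in shRBM39, a log2 fold change of -0.67 (SE 0.038, edgeR quasi-likelihood adjusted p = 1.24e-16). Epithelial markers EPCAM, KRT8, KRT18 and KRT19 were abundant in all 6 libraries. KRT8 (log2 fold change 0.43, SE 0.036, edgeR adjusted p = 2.92e-12) and KRT18 (0.24, SE 0.038, edgeR adjusted p = 1.19e-06) were higher in shRBM39, whereas CDX2, an intestinal transcription factor, was lower in shRBM39 (log2 fold change -2.13, SE 0.090, edgeR adjusted p = 2.44e-20). The 5 epithelial markers summed to 11484 to 12138 CPM (counts scaled to library size, for the marker sums by library totals alone) in shCtrl and 13478 to 13938 in shRBM39. Of the 5 leukocyte markers, PTPRC had 0 counts in every library and CD3E at most 1. The list summed to 1.19 to 2.15 CPM in shCtrl and 2.22 to 2.99 in shRBM39. The 4 fibroblast markers summed to 7.06 to 7.52 CPM in shCtrl and 9.19 to 11.9 in shRBM39, with DCN at most at 1 count. The 2 endothelial markers summed to 2.92 to 4.17 and 5.09 to 5.97 CPM, with CDH5 at most at 1 count. LYZ, COL1A1 and PECAM1 carried these rises, and their part in the class I values was not tested.

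Knockdown of RBM39 was accompanied by changes in opposite directions within the class I pathway. NLRC5, the transactivator, rose 3.46-fold, and B2M, the light chain, rose 1.21-fold. HLA-E and TAPBP fell by 28.04% and 29.4%. HLA-B, HLA-C, TAP1, TAP2 and ERAP1 did not pass the test. Calls rest on the quasi-likelihood F test of edgeR, adjusted by the Benjamini-Hochberg procedure over all 18243 genes tested, at 0.05. Thus 4 of 9 genes were called, against 59.1% of all genes tested (10790 of 18243), with 2 higher against a background of 29.2% and 2 lower against 29.9%. The groups did not overlap for 4 of 9 genes, compared with 63.3% of all genes. TAPBP and NLRC5 were called with an absolute log2 fold change of at least 0.5, which 25.3% of all genes reached. The median log2 fold change of the 9 genes was 0.03, and that of all genes tested was -0.01. Hence the share of class I genes called was no higher than the share of all genes called. In these bulk libraries a change in the number of cells that express a gene and a change of its RNA per cell cannot be told apart.

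**Figure D1:**
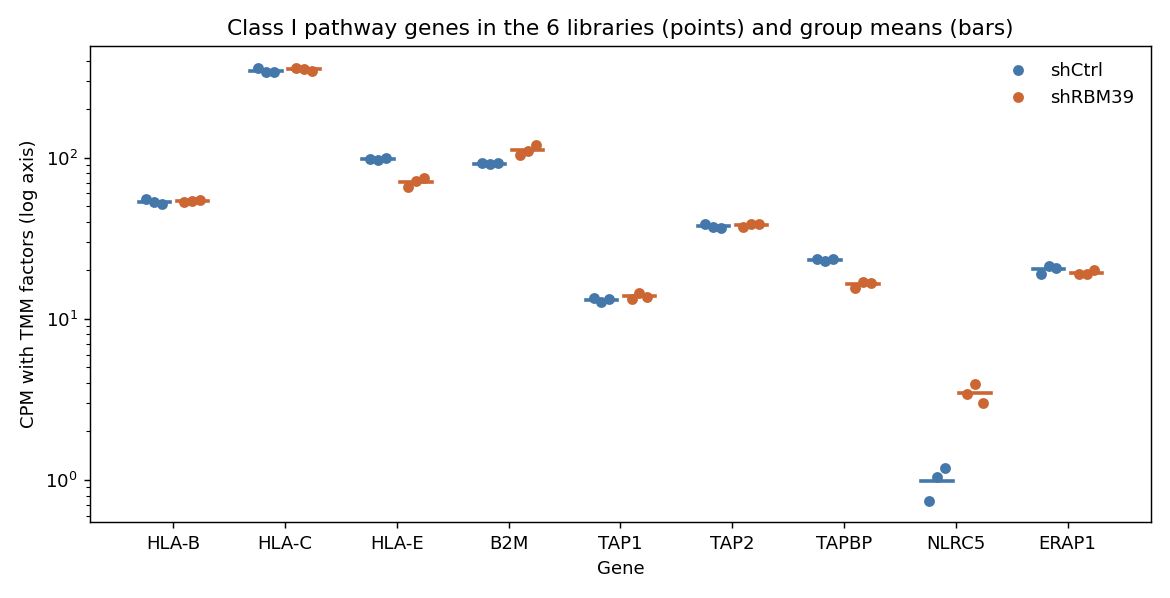
CPM with TMM (trimmed mean of M-values) factors on a log axis for the 9 class I pathway genes, with 1 point per library and a bar at each group mean (n = 3). HLA-E and TAPBP lay lower and B2M and NLRC5 higher in every shRBM39 library than in any shCtrl library, while the points of the other 5 genes overlapped.

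Levels between genes were compared per length, in the deposited RPKM (read counts scaled to library size and to the length of all annotated exons merged). In shCtrl the order by mean RPKM was HLA-C at 144 ± 3.001 (SD, n = 3), HLA-E at 34.4 ± 0.636, HLA-B at 18.4 ± 0.438, B2M at 15.7 ± 0.119, TAP2 at 6.10 ± 0.176, TAPBP at 4.80 ± 0.049, TAP1 at 2.99 ± 0.080, ERAP1 at 2.67 ± 0.186 and NLRC5 at 0.083 ± 0.019. No neighbours in this order overlapped in shCtrl. In shRBM39, B2M at 17.5 ± 1.32 RPKM and HLA-B at 17.0 ± 0.224 overlapped, as did TAPBP at 3.11 ± 0.133 and TAP1 at 2.88 ± 0.129, so these pairs have no order there. The merged exons of B2M span 6089 bases, those of HLA-B 3012 and those of HLA-C 2507, and a per-length level of B2M depends on this merged length.

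HLA-B (chr6:31353872-31357188), HLA-C (chr6:31268749-31272130) and HLA-E (chr6:30489467-30494205) lie in the MHC on GRCh38, HLA-B and HLA-C on the minus strand and HLA-E on the plus strand. B2M lies outside it, on the plus strand at chr15:44711477-44718877. Class I promoters are known for an enhanceosome site in which an X2 element, read by CREB/ATF factors, stands a short way upstream of a Y box, read by NF-Y, and to which NLRC5 is recruited. The stretch from base -200 to base -41 of the RefSeq promoters (GRCh38.p14) is shown for the 3 members that hold this arrangement, counted back from the RefSeq transcription start and written in the direction of the gene. Capitals mark TGACG, the X2-type core, CCAAT or its reverse complement ATTGG, the Y box, the NF-kB consensus, and the interferon-stimulated response element (ISRE) core, which is GAAA, any 2 bases and GAAA. Only exact matches were searched, so variant forms of these elements are neither marked nor counted.
HLA-B: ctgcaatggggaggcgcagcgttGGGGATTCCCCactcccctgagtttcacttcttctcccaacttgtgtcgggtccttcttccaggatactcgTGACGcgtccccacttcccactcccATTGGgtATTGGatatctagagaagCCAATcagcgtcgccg
HLA-C: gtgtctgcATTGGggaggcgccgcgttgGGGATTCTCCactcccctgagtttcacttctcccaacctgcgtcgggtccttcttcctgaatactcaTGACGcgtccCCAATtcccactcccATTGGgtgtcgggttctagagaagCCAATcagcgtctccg
B2M: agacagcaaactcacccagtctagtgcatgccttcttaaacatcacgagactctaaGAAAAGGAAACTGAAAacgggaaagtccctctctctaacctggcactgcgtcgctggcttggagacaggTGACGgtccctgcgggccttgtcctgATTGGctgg
The stretches lie at chr6:31357220-31357379 for HLA-B and chr6:31272133-31272292 for HLA-C, both on the minus strand, and at chr15:44711317-44711476 for B2M on the plus strand. TGACG began at base -106 in HLA-B, -105 in HLA-C and -75 in B2M, and the next ATTGG followed after 20, 20 and 21 bases. The same order within 25 bases was present in 142 of 35116 RefSeq promoters (0.404%), searched over 250 bases before the start. TGACG alone, on either strand, was present in 21.2% of them and CCAAT in 32%. HLA-B and HLA-C also held the NF-kB consensus, as did TAP1, TAPBP and ERAP1 in the 250 bases before a start. The NF-kB consensus was searched in the direction of the gene only, and 7.46% of promoters held it. B2M held 2 overlapping ISRE cores, where 3.02% of promoters held at least 1 such core. HLA-B, HLA-C and B2M shared the arrangement of TGACG and ATTGG. B2M rose, and HLA-B and HLA-C did not pass the test. Binding of NLRC5 or its partner factors was not measured, and whether these sites bear on the RNA levels was not tested. No promoter entry was matched for HLA-E or NLRC5.

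HLA-B encodes a classical peptide-presenting heavy chain. It measured 55.0, 53.0 and 51.8 CPM in shCtrl and 52.9, 53.6 and 54.4 CPM in shRBM39. The groups overlapped, with a log2 fold change of 0.01 (SE 0.046, 95% interval -0.083 to 0.102, edgeR adjusted p = 0.877).

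HLA-C, the most abundant of the 9 genes per length, encodes a classical heavy chain that is also a ligand of killer cell immunoglobulin-like receptors. It measured 359, 339 and 342 CPM in shCtrl and 362, 355 and 347 CPM in shRBM39. Its shRBM39 libraries lay within or just above the shCtrl range, and the log2 fold change was 0.03 (SE 0.037, 95% interval -0.042 to 0.109, edgeR adjusted p = 0.451). The direction of both genes depended on the scaling. With library totals alone in place of TMM, which moved the median of all genes by -0.12 on the log2 scale, HLA-B was at -0.11 (edgeR adjusted p = 0.0296) and HLA-C at -0.09 (edgeR adjusted p = 0.0259).

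HLA-E, the non-classical heavy chain, measured 98.3, 96.3 and 99.9 CPM in shCtrl and 65.9, 71.7 and 74.3 CPM in shRBM39. All 3 knockdown libraries were below all 3 controls. The group means were 98.1 ± 1.81 and 70.6 ± 4.32 CPM (SD, n = 3), and the log2 fold change was -0.47 (SE 0.045, 95% interval -0.566 to -0.384, edgeR adjusted p = 3.23e-11). It stayed called in all 15 alternatives tested against no change at 0.05, with log2 fold changes of -0.60 to -0.42.

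Of the heavy chain genes outside the chosen set, HLA-G, which was named after its values were seen, had 32 to 54 counts in shCtrl and 19 to 28 in shRBM39 and was called lower (log2 fold change -0.78, SE 0.234, edgeR adjusted p = 0.00434). HLA-F had 182 to 190 and 180 to 187 counts and a log2 fold change of 0.12 (SE 0.092, edgeR adjusted p = 0.286), which turned to -0.01 with library totals alone.

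Ratios within a library do not depend on how libraries are scaled to each other, and they separated the heavy chains. HLA-E RPKM over HLA-C RPKM was 0.231, 0.239 and 0.246 in the shCtrl libraries and 0.153, 0.1701 and 0.180 in the shRBM39 libraries. Thus HLA-E was lower relative to HLA-C in each knockdown library than in any control library. This ratio restates the fall of HLA-E beside an uncalled HLA-C. HLA-C over HLA-B was 7.83, 7.69 and 7.94 in shCtrl and 8.23, 7.96 and 7.67 in shRBM39, with overlap between groups. For HLA-E over HLA-C the exact two-sided permutation p was 0.1, the smallest that 3 against 3 libraries allow (Benjamini-Hochberg 0.122 over 11 ratios and sums computed), and for HLA-C over HLA-B the exact permutation p was 0.5. Of the summed RPKM of HLA-B, HLA-C and HLA-E, HLA-C made up 73.2% ± 0.380 in shCtrl and 77.3% ± 1.08 in shRBM39 (SD, n = 3). HLA-E made up 17.5% ± 0.472 and 13.0% ± 0.878, and HLA-B 9.36% ± 0.164 and 9.73% ± 0.205. The sum itself went from 197 ± 3.13 to 175 ± 1.40 RPKM, which is scaled by library totals, and from 498 ± 12.2 to 479 ± 2.74 CPM with TMM factors (log2 ratios of -0.17 and -0.06).

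**Figure D2:**
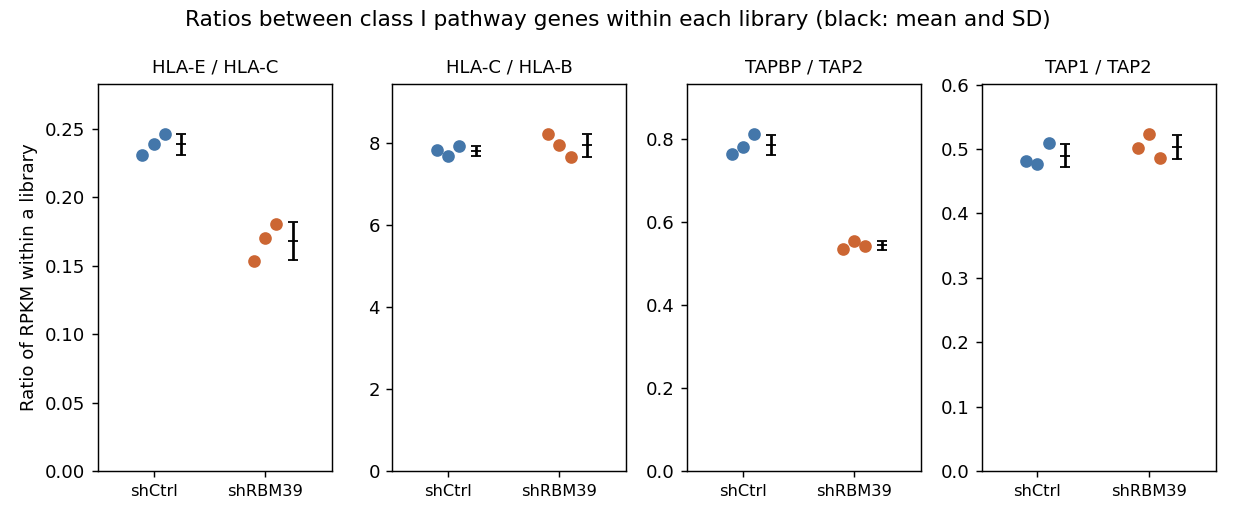
Ratios of RPKM between class I pathway genes within each library, on linear axes from 0, with 1 point per library and the mean and SD in black (n = 3 per group). HLA-E over HLA-C and TAPBP over TAP2 were lower in every shRBM39 library than in any shCtrl library, while HLA-C over HLA-B and TAP1 over TAP2 overlapped between groups.

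Heavy chains are alike in sequence, which bears on how their reads are counted. Of all 50-base stretches of annotated HLA-C exons, 7.27% occurred again within the MHC region of the reference on either strand, compared with 5.29% for HLA-E and 3.27% for HLA-B. At 100 bases, HLA-E kept 0.599%, HLA-C 0.189% and HLA-B 0. The treatment of reads with more than 1 alignment is not given in the sources used here, and reads of alleles that differ from the reference may be lost. Values of single heavy chains are uncertain to that extent.

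B2M, the light chain that all class I heavy chains share, measured 92.7, 90.7 and 92.4 CPM in shCtrl and 103, 110 and 120 CPM in shRBM39. B2M was higher in each knockdown library than in any control, and the knockdown libraries were more spread than the controls. The means were 91.9 ± 1.10 and 111 ± 8.44 CPM (SD, n = 3), and the log2 fold change was 0.28 (SE 0.045, 95% interval 0.185 to 0.368, edgeR adjusted p = 2.73e-06). The size depended on the scaling, with 0.14 on log2(RPKM + 1) as the lowest value and an adjusted p of 0.0472 as the highest among the 15 alternatives tested against no change at 0.05. B2M RPKM as a percent of the summed RPKM of HLA-B, HLA-C and HLA-E was 7.84, 8.03 and 8.10 in shCtrl and 9.23, 9.87 and 10.9 in shRBM39. Light chain RNA was therefore higher relative to the RNA of these heavy chains in all 3 knockdown libraries. The exact two-sided permutation p was 0.1, the smallest possible (Benjamini-Hochberg 0.122 over the 11 ratios and sums). This ratio draws on the same counts as the call of B2M and is no separate evidence.

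TAP1 (chr6:32845209-32853978) and TAP2 (chr6:32821833-32838780), both on the minus strand, encode the subunits of the peptide transporter. TAP1 measured 13.4, 12.6 and 13.3 CPM in shCtrl and 13.3, 14.5 and 13.6 CPM in shRBM39, a log2 fold change of 0.07 (SE 0.078, 95% interval -0.089 to 0.229, edgeR adjusted p = 0.453). TAP2 measured 39.0, 36.9 and 36.4 CPM in shCtrl and 36.9, 38.8 and 39.0 CPM in shRBM39, a log2 fold change of 0.03 (SE 0.051, 95% interval -0.075 to 0.134, edgeR adjusted p = 0.645). The groups overlapped for both, and both signs turned with library totals alone, to -0.05 for TAP1 and -0.09 for TAP2, neither called. TAP1 RPKM over TAP2 RPKM was 0.489 ± 0.018 in shCtrl and 0.504 ± 0.019 in shRBM39 (SD, n = 3, exact permutation p = 0.4). Annotated exons of TAP1 share 12.6% of their bases with PSMB8-AS1 on the opposite strand, which had 46 to 66 counts, and those of TAP2 share 32.3% with ENSG00000250264 on the same strand. In the 250 bases before the start, TAP1 held 2 overlapping ISRE cores and TAP2 held 1. RefSeq lists another start of TAP1, before which no such core lay.

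TAPBP, on the minus strand at chr6:33299694-33314387, encodes tapasin. It measured 23.6, 22.8 and 23.4 CPM in shCtrl and 15.6, 17.0 and 16.7 CPM in shRBM39, and no knockdown library reached a control library. The means were 23.3 ± 0.396 and 16.5 ± 0.740 CPM (SD, n = 3), and the log2 fold change was -0.50 (SE 0.067, 95% interval -0.637 to -0.366, edgeR adjusted p = 6.28e-08). TAPBP stayed called in all 15 alternatives tested against no change at 0.05, with log2 fold changes of -0.63 to -0.46. TAPBP RPKM over TAP2 RPKM was 0.765, 0.782 and 0.812 in shCtrl and 0.535, 0.555 and 0.542 in shRBM39. Tapasin RNA was thus lower relative to TAP2 RNA in every knockdown library than in any control library. The exact two-sided permutation p was 0.1, the smallest possible (Benjamini-Hochberg 0.122 over the 11 ratios and sums), so this test could not pass 0.05. The ratio restates the fall of TAPBP beside an uncalled TAP2 and is no separate evidence. The last 30 bases before its RefSeq start (chr6:33314079-33314108, minus strand, GRCh38.p14) are shown since they hold 2 overlapping ISRE cores, marked in capitals.
TAPBP: ccctttggagGAAAGTGAAAGTGAAAggag
TAPBP lies between RGL2, 370 bases away, and ZBTB22, 19 bases away, all on the minus strand, with ZBTB22 upstream. ZBTB22, a zinc finger protein gene, was also lower, with 9.41 and 6.10 CPM in shCtrl and shRBM39 on average and a log2 fold change of -0.63 (SE 0.105, edgeR adjusted p = 3.9e-06). RGL2, a Ral exchange factor gene, had a log2 fold change of -0.28 (SE 0.097, edgeR adjusted p = 0.012). The 3 adjacent genes were thus all called lower, as were 29.9% of all genes tested. Whether their positions bear on this was not tested. A lncRNA annotated as ENSG00000289100 on the opposite strand shares 27.6% of the exon bases of TAPBP, and the strand setting of the counting is not given in the sources used here.

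ERAP1, on the minus strand at chr5:96760810-96808100, measured 19.0, 21.3 and 20.7 CPM in shCtrl and 18.8, 19.1 and 20.03 CPM in shRBM39. The groups overlapped, with a log2 fold change of -0.08 (SE 0.068, 95% interval -0.214 to 0.063, edgeR adjusted p = 0.348). With library totals alone the value was -0.20 (edgeR adjusted p = 0.0135). Its paralogue ERAP2, a second trimming aminopeptidase, was low, at 58, 59 and 53 counts in shCtrl and 38, 29 and 42 in shRBM39. ERAP2 was lower in shRBM39 (log2 fold change -0.51, SE 0.179, edgeR adjusted p = 0.0151). This call was lost with DESeq2 (adjusted p = 0.0843) and without shRBM39 replicate 2 (edgeR adjusted p = 0.0693).

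NLRC5, on the plus strand at chr16:56989485-57083531, was the least expressed of the 9 genes, at 15, 22 and 24 counts in shCtrl and 67, 68 and 58 counts in shRBM39. These correspond to 0.744, 1.04 and 1.18 CPM and to 3.42, 3.95 and 2.99 CPM. All 3 knockdown libraries lay above all 3 controls. The log2 fold change was 1.79 (SE 0.206, 95% interval 1.37 to 2.21, edgeR adjusted p = 3.1e-09), above that of 99.6% of all genes tested. NLRC5 was also called against a log2 fold change of 0.5 and in all 15 alternatives tested against no change at 0.05, although its value on the log2(RPKM + 1) scale, which understates changes of low genes, was 0.23. Leaving out single libraries gave 1.64 to 1.94. In RPKM the means were 0.083 ± 0.019 and 0.267 ± 0.036 (SD, n = 3), so that NLRC5 stayed the lowest of the 9 genes per length after knockdown. Neither neighbouring gene on chromosome 16 was called higher. HERPUD1, an endoplasmic reticulum stress gene 44622 bases away, was lower (log2 fold change -0.57, SE 0.061, edgeR adjusted p = 6.38e-10), and CPNE2, 9006 bases away, had a log2 fold change of -0.19 (SE 0.092, edgeR adjusted p = 0.0708).

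**Figure D3:**
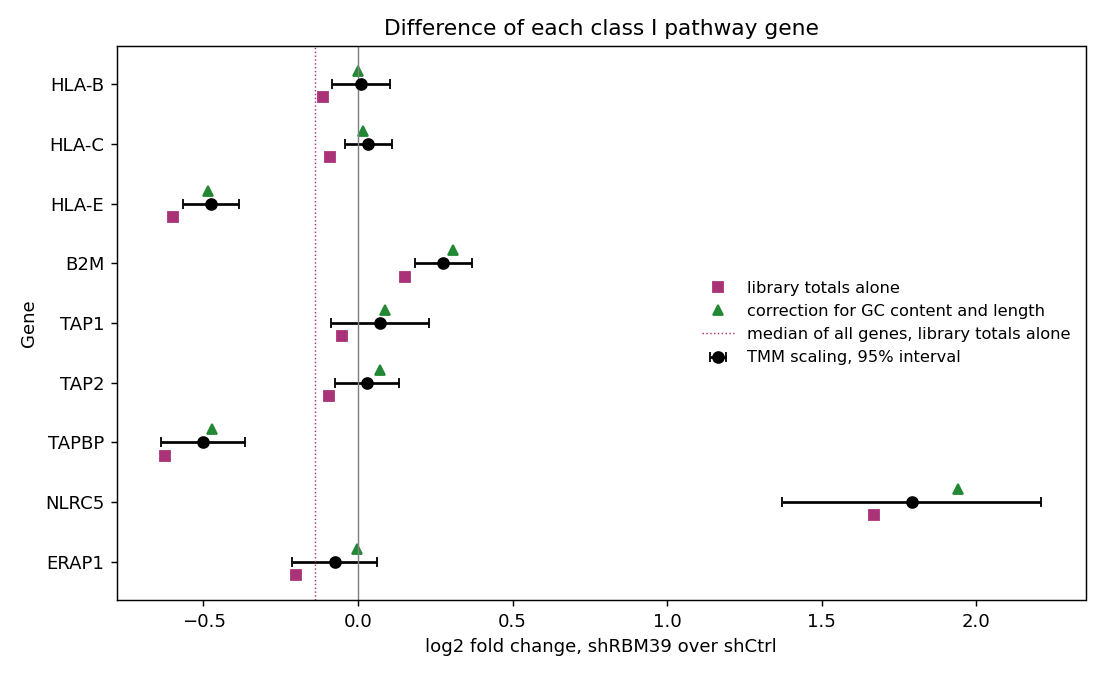
log2 fold change of shRBM39 over shCtrl for the 9 class I pathway genes with TMM scaling (black, with 95% interval), with library totals alone (squares) and with a correction for GC content and length (triangles). NLRC5, B2M, HLA-E and TAPBP kept their side of 0, while HLA-B, HLA-C, TAP1 and TAP2 lay above 0 with TMM scaling and below it with library totals alone, where the median of all genes (dotted) lay at -0.14.

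The genes around the 9 members were read from 8 lists of 87 genes, of which 70 passed the filter on low counts. Of these 70, 23 were higher, 21 were lower and 26 did not pass the test, a share called of 62.9% beside 59.1% of all genes.

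The loading and folding list held 9 genes, all of them called, 6 higher and 3 lower, with a median log2 fold change of 0.32. Of all genes tested 59.1% were called, 29.2% higher and 29.9% lower. The largest rises were those of general chaperones of the endoplasmic reticulum. CALR encodes calreticulin, a lectin chaperone of the loading complex, and had 23382, 21887 and 21778 counts in shCtrl and 43320, 36518 and 40732 in shRBM39 (log2 fold change 0.98, SE 0.040, edgeR adjusted p = 1.39e-20). HSPA5, which encodes the chaperone BiP, had 8501, 7533 and 7659 counts in shCtrl and 14661, 11772 and 13444 in shRBM39 (log2 fold change 0.88, SE 0.046, edgeR adjusted p = 7.91e-18). PDIA3, the disulfide isomerase ERp57 that is bound to tapasin in the loading complex, had 6342, 6305 and 6353 counts in shCtrl and 9200, 7706 and 8811 in shRBM39 (log2 fold change 0.57, SE 0.037, edgeR adjusted p = 3.82e-15). Thus CALR and PDIA3 rose while TAPBP, which works in the same complex, fell. CANX, the membrane-bound lectin chaperone calnexin, was lower with a log2 fold change of -0.16 (SE 0.036, edgeR adjusted p = 0.00036).

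The proteasome and peptidase list held 16 genes, of which 11 were higher, 1 lower and 4 did not pass the test, with a median log2 fold change of 0.23. Its share called was 75%, beside 59.1% of all genes tested, of which 29.2% were higher and 29.9% lower. POMP, the assembly chaperone of the proteasome, had 220, 189 and 201 counts in shCtrl and 334, 294 and 381 in shRBM39 (log2 fold change 0.86, SE 0.085, edgeR adjusted p = 1.07e-10). Of the 3 catalytic subunits of the immunoproteasome, PSMB10 and PSMB8 were called higher and PSMB9 was not called. PSMB10 had 264, 303 and 277 counts in shCtrl and 415, 371 and 456 in shRBM39 (log2 fold change 0.69, SE 0.072, edgeR adjusted p = 2.86e-10). PSMB8 had 255, 266 and 280 counts in shCtrl and 295, 260 and 311 in shRBM39 (log2 fold change 0.25, SE 0.077, edgeR adjusted p = 0.00609), a call lost with library totals alone (0.12, edgeR adjusted p = 0.17). PSMB9 had only 36 to 53 counts in shCtrl and 37 to 45 in shRBM39, and did not pass the test (log2 fold change 0.04, SE 0.192, edgeR adjusted p = 0.863). The constitutive subunit PSMB5 was higher as well (log2 fold change 0.54, SE 0.046, edgeR adjusted p = 2.64e-12), as was the cytosolic peptidase BLMH (0.53, SE 0.055, edgeR adjusted p = 3.04e-10).

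Among 14 genes for transcription factors of class I promoters, 3 were higher, 4 were lower and 7 did not pass the test, with a median log2 fold change of -0.03. This is a share called of 50%, beside 59.1% of all genes tested. IRF1, which binds ISRE sequences, had 732, 819 and 741 counts in shCtrl and 489, 426 and 484 in shRBM39, and fell by 0.58 on the log2 scale (SE 0.055, edgeR adjusted p = 4.72e-11). RFX5, the DNA-binding partner of NLRC5, had a log2 fold change of -0.04 (SE 0.046, edgeR adjusted p = 0.516). NLRC5 and IRF1 thus changed in opposite directions. Of 12 tested genes for interferon receptors and signalling, 2 were higher, 5 lower and 5 not called, with a median of -0.10. Their share called, 58.3%, was near that of all genes tested.

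Most interferon gamma target genes and class II genes were too low to test in both groups. Of 13 interferon gamma targets 4 passed the filter on low counts, and 6, among them CXCL9, CXCL10, CXCL11 and IDO1, had 0 counts in all 6 libraries. WARS, the 1 called target, was lower (log2 fold change -0.11, SE 0.044, edgeR adjusted p = 0.0273), and was named after its values were seen. Of 10 class II genes 4 passed the filter, with HLA-DRA at 0 counts in every library. Shares called were 25% of the tested targets and 50% of the tested class II genes, beside 59.1% of all genes tested. HLA-DMA, which helps load class II molecules, and CIITA, the class II transactivator related to NLRC5, were lower, at -0.59 (SE 0.132, edgeR adjusted p = 0.00025) and -0.38 (SE 0.122, edgeR adjusted p = 0.00856), and were likewise named after their values were seen. A count of 0 limits the RNA that these depths could detect and does not show that a gene is absent.

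Of 8 tested genes for class I-like molecules and ligands of the natural killer receptor NKG2D, 1 was higher, 3 were lower and 4 did not pass the test, with a median log2 fold change of -0.05. This is a share called of 50%, beside 59.1% of all genes tested. MR1, a class I-like molecule that presents microbial vitamin B metabolites, had 160, 168 and 167 counts in shCtrl and 69, 56 and 90 in shRBM39 (log2 fold change -1.07, SE 0.125, edgeR adjusted p = 4.44e-09). ULBP1, an NKG2D ligand, had 323, 385 and 312 counts in shCtrl and 145, 161 and 158 in shRBM39 (log2 fold change -0.998, SE 0.091, edgeR adjusted p = 1.57e-11). MICA, another NKG2D ligand, rose from 306, 326 and 329 counts to 442, 360 and 441 (log2 fold change 0.51, SE 0.069, edgeR adjusted p = 9.59e-08). The third gene called lower was ULBP2 (-0.45, SE 0.166, edgeR adjusted p = 0.0209), which was named after its values were seen. The NKG2D ligands therefore moved in both directions.

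**Figure D4:**
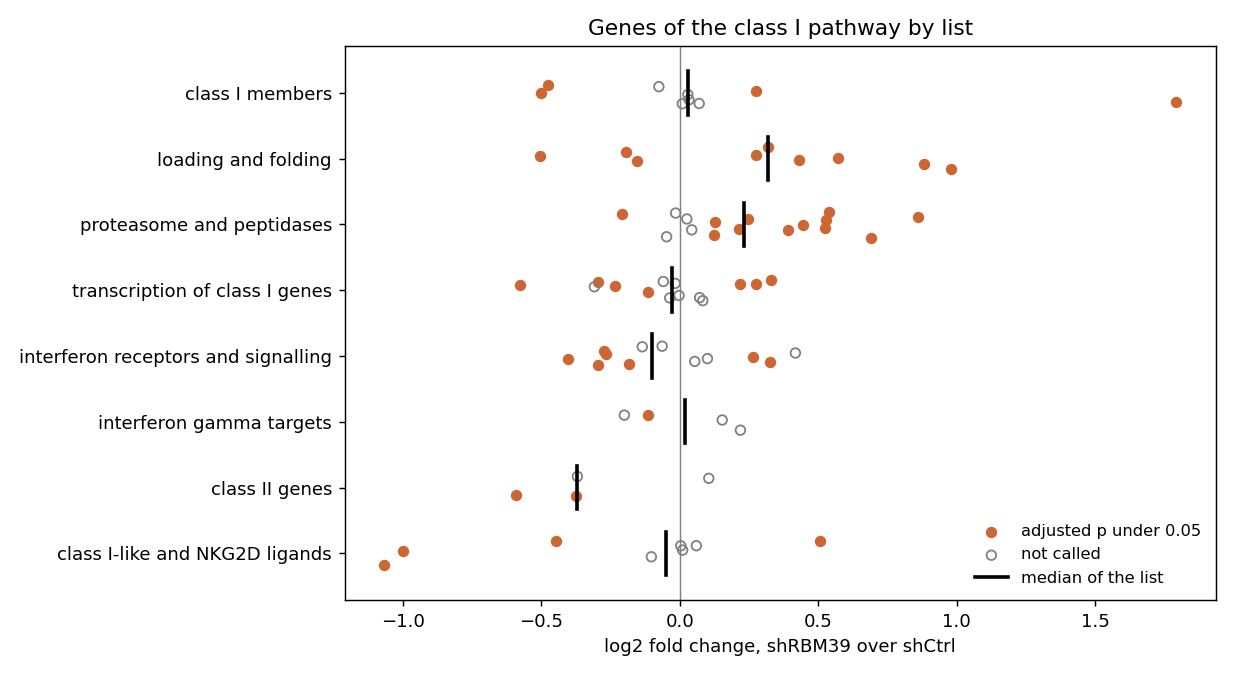
log2 fold change of shRBM39 over shCtrl for each tested gene of the class I set and of 7 lists around it, with filled points for genes at an edgeR adjusted p under 0.05, open points for the others and a black bar at the median of each list. Loading and folding genes and proteasome genes had medians of 0.32 and 0.23, and the others shown had medians from -0.37 to 0.03.

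The deposited table of splicing events, made by the authors with rMATS, listed 1582 events, and 0 of them lay in the 9 genes. It lists selected events, so absence from it does not show that splicing of a gene was unchanged. So many events can cover only a small part of the 18243 genes tested for counts. Of the other list genes 5 had an event there. The table names its groups 1 and 2 without tying them to the hairpins, so no direction was read from it.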

How the data were processed

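RNA of 3 shCtrl and 3 shRBM39 libraries of SW480 cells was prepared with a stranded mRNA kit. The submitters' processing notes name Trimmomatic 0.36, STAR 2.5.3a, featureCounts of Subread 1.5.1, edgeR 3.12.1 and GRCh38, without roles. The authors deposited raw counts for 56303 gene symbols and RPKM values, which equalled counts scaled to merged exon length and library total. Multi-mapping, identifier collapsing and strand setting are not given in the sources used here. A deposited table of other values, inclusion levels of splicing events with the authors' p-values and FDR, was used only to look up genes, and the p-values and FDR were not used.

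Counts were analysed with edgeR 4.0.16 (R 4.3.3) by filterByExpr, TMM factors, a group term and the quasi-likelihood F test, with Benjamini-Hochberg adjustment over all 18243 genes tested and a threshold of 0.05. CPM carry TMM factors, except the sums of cell type markers, which use library totals alone. SE were derived from the F statistic. Single ratios were tested by exact two-sided permutation. The procedure was tested on simulated counts. Alternatives used DESeq2 1.42.0, limma 3.58.1 on log2(RPKM + 1) and log2(RPKM + 0.1), other scalings and filters, a stricter threshold, glmTreat with a bound of 0.5 on the log2 scale, a replicate block, single libraries left out, and a GC and length correction (mgcv 1.9.3). Some genes of the lists are not reported here by name. The members and lists were chosen with earlier results of these data known. Genes of the lists were named if they were direct partners of the members, or were among the 4 largest changes of a list that were called, averaged 5 CPM or more, did not overlap between groups and reached an absolute log2 fold change of 0.5. Promoters came from RefSeq (GRCh38.p14), with 7 of 9 members matched. Gene positions are those of the count table, of whose member exons 256 of 287 (89.2%) were identical to GENCODE v44.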

Additional observations from a re-analysis of the deposited data

How the results depend on the processing

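NLRC5, B2M, HLA-E and TAPBP kept their direction under all 17 alternatives and were called in all 15 that tested against no change at 0.05. Against a log2 fold change of 0.5, 1 of the 9 class I genes was called (1 higher, 0 lower), with 6 pathway genes and 2232 genes in all. With library totals alone 7 class I genes were called, 5 of them lower, and on either RPKM scale 4 were lower. Of all 18243 genes tested, 11146 were called with totals, 7371 of them lower. On log2(RPKM + 1) 10511 were called and 6981 were lower, and on log2(RPKM + 0.1) 10519 and 6984. Under TMM 10790 were called and 5463 were lower. These settings moved the median of all genes by -0.12 (totals), -0.11 (RPKM + 1) and -0.12 (RPKM + 0.1), and 33.9%, 33.6% and 33.6% of calls were then higher, compared with 49.4% under TMM. Signs turned for genes near 0. With library totals alone, log2(RPKM + 1) and log2(RPKM + 0.1), in this order, HLA-B was at -0.114, -0.108 and -0.113, HLA-C at -0.090, -0.089 and -0.090, TAP1 at -0.053, -0.039 and -0.050, TAP2 at -0.094, -0.080 and -0.092, HLA-F at -0.0086, -0.0046 and -0.0064, and PSMB9 at -0.080, -0.030 and -0.057. Upper-quartile scaling gave -0.024 for HLA-B and -0.0035 for TAP2, and the GC and length correction gave -0.0015 for HLA-B. Without single libraries HLA-B ranged from -0.0081 to 0.039 and PSMB9 from -0.063 to 0.235, and 10138 to 10263 genes were called. The cause of these differences was not tested. PSMB8 lost its call and RFX5 gained one under totals and both RPKM scales. Among the alternative values of the 9 genes, 133 kept direction and call, 3 lost the call (all against a log2 fold change of 0.5), and 16 turned in sign. A call was gained by 7 values, 6 of them with the sign turned (HLA-B and HLA-C with totals and on both RPKM scales) and 1 with the sign kept (ERAP1 with totals).

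Same-numbered libraries did not deviate together (correlations of 0.013, -0.031 and 0.0087), so no pairing by number was seen in the counts. Whether same-numbered libraries were handled together is not given in the sources used here. With the replicate block 10810 genes, 4 class I genes and 45 pathway genes were called. Depth limited NLRC5, at 15 to 24 counts in shCtrl, and PSMB9.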

Other observations

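Beside the 6 class I genes of the MHC, 153 other tested genes lay between the start of HLA-F and the end of TAPBP. Of these, 49 were higher (32%, beside 29.2% of all genes tested) and 40 were lower (26.1%, beside 29.9%). The other 64 did not pass the test, and the median log2 fold change was 0.05. These shares were near those of all genes. Neither of the nearest tested neighbours of B2M on chromosome 15 was called higher. SPG11, a gene of endosomal and lysosomal function 47799 bases away, was lower (log2 fold change -0.55, SE 0.060, edgeR adjusted p = 8.28e-10), and TRIM69, 10111 bases away, had a log2 fold change of -0.17 (SE 0.101, edgeR adjusted p = 0.144). RPL3P2, the nearest tested gene on the HLA-C side of HLA-B, was called lower (log2 fold change -0.57, SE 0.194, edgeR adjusted p = 0.0112). It was low, at 2.42 CPM in shCtrl and 1.63 CPM in shRBM39 on average. On the other side of HLA-B, MICA rose as given above. GNL1, next to HLA-E at 47172 bases, was slightly higher (0.14, SE 0.038, edgeR adjusted p = 0.00287) while HLA-E fell. HLA-DOB, a class II gene next to TAP2, was near the detection limit, at 0.744 and 0.302 CPM on average in shCtrl and shRBM39 (log2 fold change -1.28, SE 0.381, edgeR adjusted p = 0.00424).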
